A study of Mus musculus with 4 samples.

Results

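The effect of a high fat-high sucrose (HFHS) diet was examined in wild-type mice, by setting the array of epididymal fat from *Mir342* (+/+) mice fed with HFHS chow against that from *Mir342* (+/+) mice fed with standard (STD) chow. These are 2 of the 4 arrays of the series. Each gene was represented by a probe with 1 gene symbol, that of the highest 4-array mean where a gene had several, and 12963 of 22180 genes had a mean log2 expression value above a background floor of 5.06 and were compared. All mice were male and labelled C57BL/6J, 5 weeks old at the start and 16 weeks old when the fat was taken. The paper describes a line founded by C57BL/6N chimeras that were bred to C57BL/6JJcl mice. The other 2 arrays were from *Mir342* (-/-) mice on the same chows, in which a selection cassette replaced the sequence of the microRNA in every tissue. The sources used here do not say whether an array held the RNA of 1 animal or of a pool. As there was 1 array per group, the differences below carry no error and no test was made. Genes at least 2-fold apart were counted as higher or lower, and the values are HFHS minus STD on the log2 scale unless a fold is given.

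Epididymal fat is a white adipose depot that lies against the epididymis. Its adipocytes store triglyceride that they take up from lipoproteins or build from glucose, a route driven by insulin through the transcription factors SREBP-1c and ChREBP, and they secrete hormones such as leptin and adiponectin. Around them lie fibroblast-like precursors that lay down matrix, capillaries, and macrophages and other immune cells, whose numbers are known to change in obesity. In whole tissue a lower value can come from fewer cells of a type or from less RNA per cell, and these cannot be told apart.

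The tissue label was checked against marker genes. All 17 adipocyte markers on the array lay above the floor in their mean, with *Adipoq* (adiponectin) at 10.45 on the HFHS and 10.16 on the STD array and *Fabp4* at 12.52 on the HFHS and 12.41 on the STD array. Of 18 epididymal epithelium markers on the array, 4 were above the floor, and the 4-array means of *Gpx5*, *Adam7*, *Defb37* and *Lcn8* were below it. *Adam7* was 3.69 on HFHS (+/+) but 5.72 on STD (+/+), with 4.02 on HFHS (-/-) and 3.90 on STD (-/-), and *Lcn8* was 4.70 on HFHS (+/+) and 5.08 on STD (+/+). Of 11 testis germ cell markers on the array, 2 were above the floor, and *Prm1*, *Tnp1*, *Ddx4* and *Dazl* were among those below it. The summed linear level of the 11 was 1914 on HFHS (+/+), 1817 on STD (+/+), 1964 on HFHS (-/-) and 1727 on STD (-/-). The *Mir342* probe itself had a 4-array mean of 5.01, just under the floor, with 5.52 on HFHS (+/+), 5.43 on STD (+/+), 4.46 on HFHS (-/-) and 4.62 on STD (-/-), so both wild-type arrays read higher than both *Mir342* (-/-) arrays and differed little by diet. Its host gene *Evl*, whose intron holds the microRNA, was 7.65 on HFHS and 7.55 on STD. These are mRNA array readings, so the *Mir342* probe does not settle whether mature miR-342-3p differed by diet. By other measures, the paper reports both as higher on HFHS in white fat. These were RNA sequencing and RT-qPCR for *Mir342*, and RT-qPCR for *Evl*. The microRNA that the targeted allele removes is shown here with its seed, bases 2 to 8, in capitals (RefSeq, GRCm38.p6, chr12:108658680-108658702, plus strand).
mmu-miR-342-3p: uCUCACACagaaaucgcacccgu

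The STD (+/+) array stood somewhat apart from the rest. Its Pearson correlation with the other arrays over all probes was 0.976 to 0.980, whereas the other 3 arrays correlated with each other at 0.981 to 0.987. Genes whose value on one array was at least 2-fold above, or at least 2-fold below, each of the other 3 were therefore marked as set by that array alone. The STD (+/+) array had 50 such genes on the high side and 15 on the low side, against 15 and 1 for HFHS (+/+), 6 and 0 for HFHS (-/-), and 0 and 4 for STD (-/-). The 50 depended on the floor, with 117 on the high side without a floor and 18 with the floor raised by 1, while the low side stayed at 15. The text says where a gene it names was set by 1 array, since such a difference between the diets rests on 1 array.

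Of the 12963 genes, 240 (1.85%) reached 2-fold on the higher side on HFHS and 154 (1.19%) on the lower side. At 1.5-fold, 846 (6.53%) were higher and 606 (4.67%) lower. The median difference over all genes was 0.02, and its interquartile range ran from -0.18 to 0.22. Of all genes, 6824 lay above 0 and 6126 below. Among the 240 higher genes, 15 were set by the low STD (+/+) array and 15 by the high HFHS (+/+) array, which left 210. Among the 154 lower genes, 50 were set by the high STD (+/+) array and 1, *Fam13a*, by the low HFHS (+/+) array, which left 103. The lower of both arrays was under the floor in 30 of the 240 genes and in 38 of the 154, and for these the fold given is a lower bound against the floor.

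**Figure D1:**
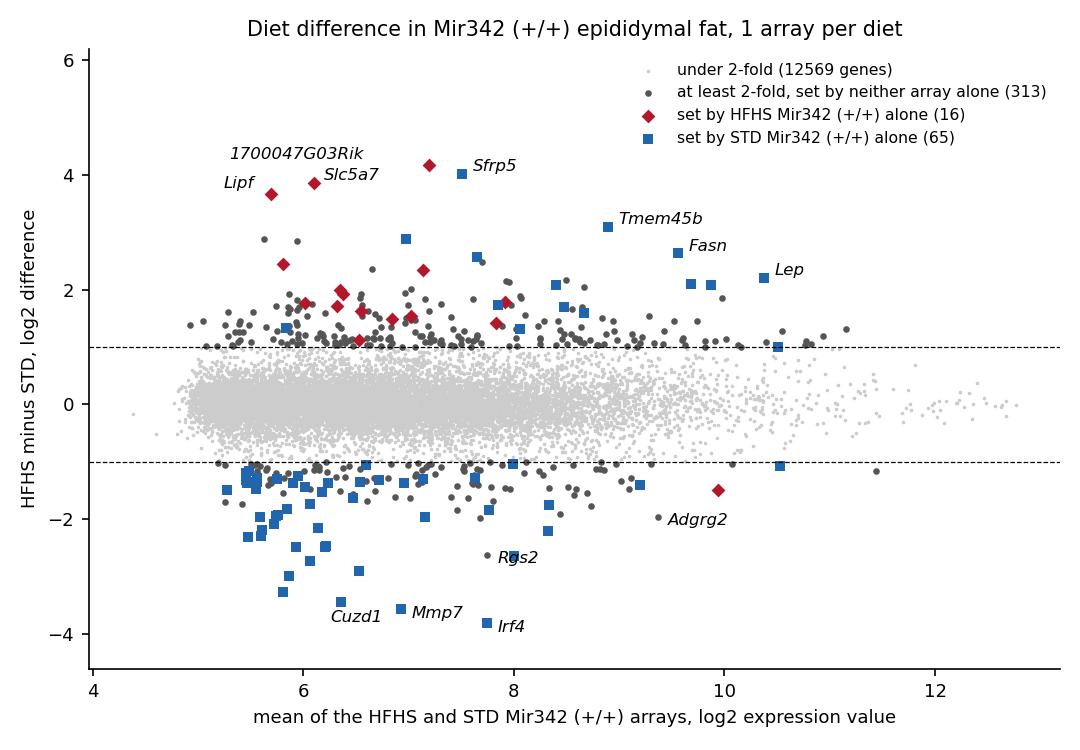
HFHS minus STD log2 difference (y axis) against the mean of both *Mir342* (+/+) arrays (x axis) for 12963 genes, with dashed lines at 2-fold. Squares mark the 65 genes set by the STD (+/+) array alone, most of them lower on HFHS and at low mean values, and diamonds the 16 set by the HFHS (+/+) array alone.

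The *Mir342* (-/-) arrays gave the diet difference of the other genotype. They entered the comparison above through the 4-array means behind the choice of probes and the floor, and through the marks for 1 array. There, HFHS raised 75 genes (0.579%) by 2-fold or more and lowered 24 (0.185%) by as much. Of the 240 genes higher in *Mir342* (+/+), 233 (97.1%) were also higher in *Mir342* (-/-), and of the 154 lower genes, 130 (84.4%) were also lower, against 65.6% of all genes with the same direction in both. Since these genes were chosen for their size in *Mir342* (+/+), smaller medians in *Mir342* (-/-) follow in part from that choice and are given as a description. The median difference of the 240 genes was 1.25 in *Mir342* (+/+) and 0.63 in *Mir342* (-/-), with 48 genes past 2-fold in both. The median of the 154 genes was -1.32 in *Mir342* (+/+) and -0.36 in *Mir342* (-/-), with 15 past 2-fold in both. For the 50 lower genes set by the STD (+/+) array alone, the *Mir342* (-/-) median was -0.15 and 33 had the same direction. No gene of the 394 went the other way by 1.5-fold or more in *Mir342* (-/-). Below, single genes are described as having both HFHS arrays on 1 side of both STD arrays. The share of all genes with this arrangement was not counted, so it describes the named genes only. Some of these were picked for naming because they passed 2-fold in both genotypes, and for them the arrangement follows in part from that choice.

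**Figure D2:**
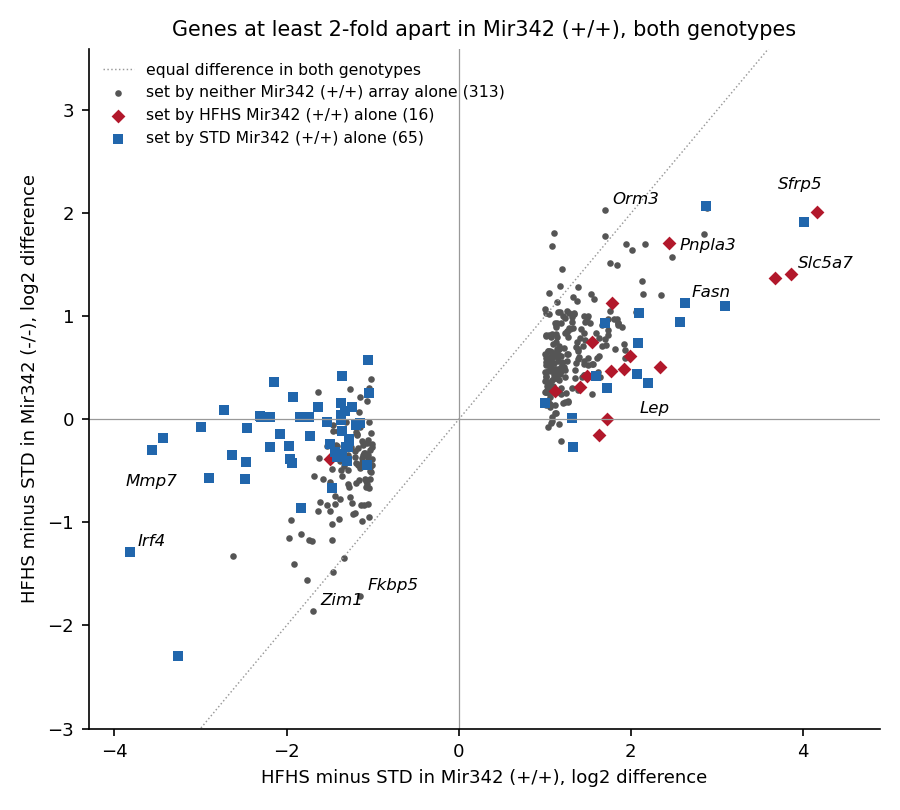
HFHS minus STD in *Mir342* (-/-) (y axis) against the same difference in *Mir342* (+/+) (x axis), both log2, for the 394 genes at least 2-fold apart in *Mir342* (+/+). Most points lie on the same side of 0 on both axes but nearer to 0 in *Mir342* (-/-), and the squares, set by the STD (+/+) array alone, gather near 0 on the y axis where the gene was lower on HFHS.

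Genes of de novo lipogenesis, the pathway from citrate and acetate to fatty acids, held some of the largest increases. Of 17 members compared, 8 were 2-fold or more higher on HFHS, beside 1.85% of all genes, none was 2-fold lower, and the median was 0.53. *Fasn*, the fatty acid synthase, had a value of 10.87 on HFHS (+/+), 8.24 on STD (+/+), 10.64 on HFHS (-/-) and 9.51 on STD (-/-). Both HFHS arrays were above both STD arrays, and the 6.19-fold difference in *Mir342* (+/+) was set by the low STD (+/+) array. *Pnpla3*, a lipid droplet acyl hydrolase and a known target of SREBP-1c, was 8.94 on HFHS (+/+), 6.46 on STD (+/+), 8.93 on HFHS (-/-) and 7.35 on STD (-/-). *Acss2*, which makes cytosolic acetyl-CoA from acetate, was 8.54 on HFHS (+/+), 6.69 on STD (+/+), 8.20 on HFHS (-/-) and 6.70 on STD (-/-). For both genes the diets did not overlap across genotypes, and the folds in *Mir342* (+/+) were 5.59 and 3.59.

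Other members of the route were higher, little different or lower. *Elovl6*, which lengthens palmitate to stearate, was 7.46 on HFHS and 5.89 on STD, a 2.97-fold difference. *Srebf1*, the gene of SREBP-1, was 7.72 on HFHS and 6.53 on STD. *Me1*, the malic enzyme that supplies NADPH, was 10.19 on HFHS and 9.03 on STD, and *Slc25a1*, the citrate carrier, was 9.68 on HFHS and 8.67 on STD. These 4 genes differed in the same direction in *Mir342* (-/-), by 0.46 to 1.16. *Thrsp* (Spot 14), a small protein that promotes lipogenesis, was 9.32 on HFHS and 7.63 on STD, set by the STD (+/+) array alone, and its *Mir342* (-/-) difference was 0.94. Members at the entry of the pathway moved less. *Acly*, the ATP citrate lyase, was 8.14 on HFHS and 7.88 on STD, *Acaca*, the cytosolic acetyl-CoA carboxylase, 9.27 on HFHS and 8.73 on STD, and the desaturase *Scd1* 12.59 on HFHS and 12.21 on STD. On the other side of 0 lay *Acacb*, the mitochondrial acetyl-CoA carboxylase, with 8.33 on HFHS and 9.23 on STD, and *Mlxipl*, the gene of ChREBP, with 7.53 on HFHS and 7.97 on STD. Among the enzymes that remodel fatty acids, *Tecr*, the trans-2-enoyl-CoA reductase, was 10.47 on HFHS and 9.02 on STD and *Fads3* was 11.33 on HFHS and 10.22 on STD. *Fads2*, the delta-6 desaturase, was 7.10 on HFHS and 7.74 on STD, with 6.85 on HFHS (-/-) and 6.57 on STD (-/-).

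**Figure D3:**
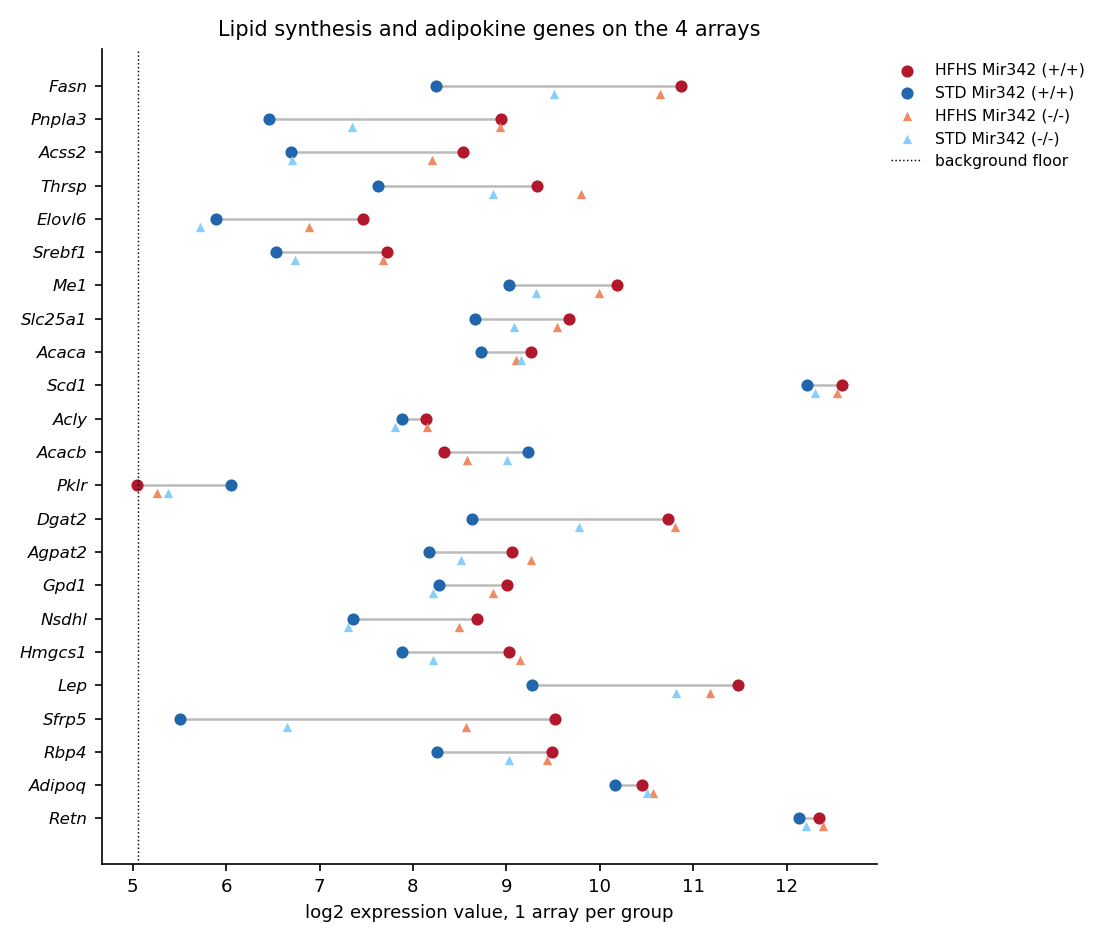
Log2 expression value (x axis) of lipid synthesis and adipokine genes (y axis) on the 4 arrays, with circles for *Mir342* (+/+), triangles for *Mir342* (-/-), and the background floor dotted. *Fasn*, *Dgat2*, *Lep* and *Sfrp5* have the STD (+/+) circle far to the left, whereas *Adipoq*, *Retn* and *Scd1* are close on all 4 arrays.

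Cholesterol synthesis, which SREBP-2 controls, was higher to a smaller extent. Of 19 members, 16 lay above 0, 6 were at least 1.5-fold and 2 at least 2-fold higher, beside 6.53% and 1.85% of all genes, none was 1.5-fold lower, and the median was 0.42, against 0.35 in *Mir342* (-/-). *Nsdhl*, a sterol dehydrogenase, was 8.68 on HFHS (+/+), 7.36 on STD (+/+), 8.50 on HFHS (-/-) and 7.30 on STD (-/-). *Hmgcs1*, the cytosolic HMG-CoA synthase, was 9.03 on HFHS (+/+), 7.89 on STD (+/+), 9.15 on HFHS (-/-) and 8.22 on STD (-/-). In both genes the 2 HFHS arrays were above the 2 STD arrays. *Insig1*, which holds the SREBPs in the endoplasmic reticulum and is their target, differed by 0.73, and *Lss*, the lanosterol synthase, by 0.72. *Srebf2* itself was 7.67 on both arrays.

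Promoters are shown for members of both pathways that were higher on HFHS. The letters CCAAT, the core bound by NF-Y, a known partner of the SREBPs, were searched on both strands in 250 bases before and 50 after each start site (RefSeq, GRCm38.p6). They occurred in 37.4% of 32851 promoters and in at least 1 promoter of 41.4% of the 10084 compared genes with a sequence, in 12 of 16 lipogenesis genes and in 15 of 15 cholesterol synthesis genes. The sterol element letters TCACNCCAC were found in 1.24% of promoters, and among these genes in *Mlxipl* and *Hmgcs1*. A match describes the letters and not a bound site. The windows below run in the direction of the gene, with CCAAT or its complement in capitals, at 90 bases before the start in *Fasn* (chr11:120824621-120824649, minus strand), 73 in *Acss2* (chr2:155517958-155517986, plus strand), 99 in *Pnpla3* (chr15:84167705-84167733, plus strand), 45 in *Hmgcs1* (chr13:119690294-119690322, plus strand) and 109 in *Nsdhl* (chrX:72918400-72918428, plus strand), and with the sterol element at 137 in *Hmgcs1* (chr13:119690204-119690232, plus strand).
Fasn, CCAAT: ccgcgcgccgccATTGGgccaccgagaac
Acss2, CCAAT: gccctacccactATTGGatgcctagagca
Pnpla3, CCAAT: tccagtacgcccATTGGgcctcccactgg
Hmgcs1, CCAAT: tccccgcctctcATTGGctgaaagcggat
Nsdhl, CCAAT: agcccgcttcccATTGGtttgggaacgaa
Hmgcs1, sterol element: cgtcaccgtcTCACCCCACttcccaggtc

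Triglyceride assembly, storage and breakdown differed at single steps rather than as groups. The median of 16 triglyceride synthesis genes was 0.05. *Dgat2*, which adds the last acyl chain, was 10.73 on HFHS (+/+), 8.64 on STD (+/+), 10.81 on HFHS (-/-) and 9.78 on STD (-/-). It was the only one of the 16 past 2-fold, beside 1.85% of all genes on the higher side. The 4.28-fold difference was set by the STD (+/+) array alone. *Agpat2* differed by 0.89 and *Gpd1* by 0.73, while the lipin *Lpin1* was lower, at -0.64, with -0.51 in *Mir342* (-/-). Of 14 lipid droplet proteins, *Plin1*, which coats the adipocyte droplet, was 9.94 on HFHS and 8.89 on STD and *G0s2*, an inhibitor of the lipase ATGL, was 8.24 on HFHS and 7.05 on STD. Their *Mir342* (-/-) differences were 0.22 and 0.30. The lipases *Pnpla2* and *Lipe*, the lipoprotein lipase *Lpl* and the fatty acid transporter *Cd36* lay between -0.06 and 0.28. The carboxylesterase *Ces1f* was 6.91 on HFHS and 8.29 on STD, and its relative *Ces1d* differed by -0.67. Of 22 genes of fatty acid oxidation, none was at least 2-fold higher, the median was 0.07, and *Ehhadh*, the peroxisomal bifunctional enzyme, was 6.99 on HFHS and 8.27 on STD, set by the STD (+/+) array alone. The 31 respiratory chain genes had a median of 0.17 and none reached 2-fold.

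Genes of glucose use and of insulin signalling did not move as one. *Slc2a4*, the insulin-responsive transporter GLUT4, was 7.79 on HFHS and 7.14 on STD, whereas *Slc2a1*, the basal transporter GLUT1, was 7.53 on HFHS and 8.45 on STD. In *Mir342* (-/-) the first differed by 0.56 and the second by -0.19. Of 19 glucose uptake and glycolysis genes, 15 lay above 0, beside 6824 of all 12963 genes. Only *Tpi1*, triose phosphate isomerase, was at least 2-fold higher, beside 1.85% of all genes, with 9.50 on HFHS and 7.79 on STD. The median was 0.29. In insulin signalling, 4 of 15 genes were at least 1.5-fold lower, beside 4.67% of all genes. These were *Insr*, the insulin receptor, at -0.83, *Irs1* and *Pde3b*, both at -0.67, and *Tbc1d4* at -0.59. *Irs3*, a rodent insulin receptor substrate of adipocytes, stood opposite, with 7.51 on HFHS (+/+), 5.59 on STD (+/+), 7.05 on HFHS (-/-) and 6.32 on STD (-/-), a 3.78-fold difference in *Mir342* (+/+).

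Secreted products and receptors of the adipocyte included the largest named increase. *Sfrp5*, a secreted antagonist of Wnt ligands, was 9.52 on HFHS (+/+), 5.50 on STD (+/+), 8.56 on HFHS (-/-) and 6.65 on STD (-/-). Both HFHS arrays were far above both STD arrays, and the 16.2-fold difference in *Mir342* (+/+) was set by the low STD (+/+) array. *Lep*, the gene of leptin, was 11.48 on HFHS (+/+), 9.28 on STD (+/+), 11.18 on HFHS (-/-) and 10.82 on STD (-/-). Here 3 arrays lay together and the STD (+/+) array alone was low, so the difference was 4.60-fold in *Mir342* (+/+) and 1.28-fold in *Mir342* (-/-). *Mest*, an imprinted gene known to track fat mass expansion in mice, had the same arrangement, with 10.91 on HFHS (+/+), 8.84 on STD (+/+), 10.38 on HFHS (-/-) and 9.94 on STD (-/-). So did the imprinted gene *Nnat*, with 9.44 on HFHS (+/+), 7.36 on STD (+/+), 9.93 on HFHS (-/-) and 9.18 on STD (-/-).

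Other members did not rest on the STD (+/+) array. *Apln*, the gene of apelin, was 6.05 on HFHS and under the floor on STD, that is, at least 1.99-fold higher, and its receptor *Aplnr* was 7.43 on HFHS and 5.81 on STD. *Rbp4*, the retinol carrier, was 9.49 on HFHS and 8.26 on STD. The receptors *Ptger3* for prostaglandin E2, *Npr3* for natriuretic peptide clearance and *Hcar1* for lactate differed by 2.13, 1.85 and 1.10, and in *Mir342* (-/-) by 1.35, 0.93 and 1.81. These receptors are known to inhibit or oppose lipolytic signals. *Sfrp4*, another antagonist of the family, was 6.17 on HFHS and under the floor on STD, that is, at least 2.16-fold higher. *Adipoq* differed by 0.29 and *Retn*, the gene of resistin, by 0.22. Lower were *Nampt* (visfatin), with 8.06 on HFHS and 9.01 on STD, and *Vegfa*, with 9.74 on HFHS and 10.56 on STD. The *Mir342* (-/-) difference was -0.85 for *Nampt* and -0.11 for *Vegfa*. Over the 17 adipocyte identity genes the median was 0.12, with 2 of them at least 2-fold higher, beside 1.85% of all genes.

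Beyond the lists, the large increases were a mixed group. *Tmem45b*, a membrane protein, was 10.44 on HFHS and 7.35 on STD, set by the STD (+/+) array alone. *Bmp3*, a member of the BMP family that is known to promote adipogenic commitment in mouse cells, was 7.83 on HFHS (+/+), 5.48 on STD (+/+), 7.46 on HFHS (-/-) and 6.25 on STD (-/-). The aldehyde dehydrogenase *Aldh1a7* was 9.58 on HFHS and 7.41 on STD, and the haemochromatosis gene *Hfe* was 8.998 on HFHS and 6.85 on STD. *Pcbd1*, which recycles tetrahydrobiopterin, was 8.03 on HFHS and 6.01 on STD, and *Fam20c*, a kinase of secreted proteins, was 7.33 on HFHS and 5.39 on STD. These 5 genes rose without resting on 1 array, and in *Mir342* (-/-) they differed by 1.21 to 1.71. *Lctl* and *Prr32* were below the floor on STD and at least 4.02-fold and 4.95-fold higher on HFHS. *Cryab*, a small heat shock protein, differed by 2.05, with 1.04 in *Mir342* (-/-).

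Macrophage genes were higher on HFHS. Of 20 members compared, 17 lay above 0, 10 were at least 1.5-fold and 2 at least 2-fold higher, beside 6.53% and 1.85% of all genes, none was 1.5-fold lower, and the median was 0.58, with 0.60 in *Mir342* (-/-). The summed linear level of the 21 markers on the array was 7921 on HFHS and 5473 on STD, and in *Mir342* (-/-) it was 7192 on HFHS and 4959 on STD. *Folr2*, a folate receptor of resident macrophages, was 9.31 on HFHS (+/+), 7.97 on STD (+/+), 9.05 on HFHS (-/-) and 8.03 on STD (-/-). *Fcer1g*, the signalling chain of Fc receptors, was 9.18 on HFHS (+/+), 8.06 on STD (+/+), 8.91 on HFHS (-/-) and 8.02 on STD (-/-). *Adgre1*, which encodes F4/80, was 7.86 on HFHS (+/+), 6.91 on STD (+/+), 7.81 on HFHS (-/-) and 6.89 on STD (-/-). In each of the 3 genes the HFHS arrays of both genotypes were above both STD arrays. *C1qa*, *C1qb* and *Csf1r* differed by 0.81 to 0.88. *Lyve1*, a marker of perivascular macrophages and lymphatic endothelium, was 9.18 on HFHS and 9.69 on STD, and *Cd163* was 7.84 on HFHS and 8.03 on STD.

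Genes of lipid-associated macrophages, the cells that surround dying adipocytes in obese fat, did not follow. Their median over 20 genes was 0.05. *Gpnmb* was 7.48 on HFHS (+/+), 8.52 on STD (+/+), 7.25 on HFHS (-/-) and 6.9998 on STD (-/-), set by the STD (+/+) array alone. The macrophage elastase *Mmp12* was 6.996 on HFHS (+/+), 7.88 on STD (+/+), 7.10 on HFHS (-/-) and 5.95 on STD (-/-), and the proton pump subunit *Atp6v0d2* was 5.90 on HFHS (+/+), 6.79 on STD (+/+), 5.47 on HFHS (-/-) and 4.42 on STD (-/-). These 3 genes were lower on HFHS in *Mir342* (+/+) but higher in *Mir342* (-/-), and the STD arrays of both genotypes were the farthest apart. *Mmp12* and *Atp6v0d2* were set by the low STD (-/-) array alone. *Trem2*, the receptor that defines the state, differed by 0.13 and *Itgax* (CD11c) by 0.43, while *Ctsd*, *Lgals3* and *Fabp5* differed by 0.97, 0.79 and 0.85.

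Of 11 MHC class II genes on the array, 7 passed the floor and were compared. All 7 lay above 0, beside 6824 of all 12963 genes, and 3 were at least 2-fold higher, beside 1.85%. The median was 0.47. *H2-Ab1* was 10.94 on HFHS (+/+), 9.85 on STD (+/+), 10.66 on HFHS (-/-) and 9.93 on STD (-/-). *H2-Eb1* was 9.38 on HFHS (+/+), 8.34 on STD (+/+), 9.22 on HFHS (-/-) and 8.63 on STD (-/-), and *H2-Aa* was 9.58 on HFHS (+/+), 8.56 on STD (+/+), 9.11 on HFHS (-/-) and 8.55 on STD (-/-). All 3 genes, which encode the antigen-presenting chains, passed 2-fold in *Mir342* (+/+) and differed by 0.56 to 0.73 in *Mir342* (-/-). *Ciita*, the class II transactivator, differed by 0.41. The letters CCAAT, known in class II promoters as the Y box, occurred in 4 of the 5 genes of the list with a promoter sequence, beside 41.4% of the compared genes with one, and are shown at 59 bases before the start of *H2-Eb1* (chr17:34305796-34305824, plus strand) and 48 before that of *H2-Aa* (chr17:34287855-34287883, minus strand).
H2-Eb1, CCAAT: cctttgatgctgATTGGctcccagcactg
H2-Aa, CCAAT: gagaattttctgATTGGttctggcgagtt

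Most interferon-induced genes were higher on HFHS. Of 24 on the array, 21 passed the floor and were compared. Under the floor in their means were *Isg15*, at 0.55, *Mx1*, at -0.16, and *Mx2*, at -0.11. Of 21 members, 20 lay above 0, 11 were at least 1.5-fold and 2 at least 2-fold higher, beside 6.53% and 1.85% of all genes, and the median was 0.59, against 0.30 in *Mir342* (-/-). *Gbp7*, a guanylate-binding protein, was 8.53 on HFHS (+/+), 7.12 on STD (+/+), 8.18 on HFHS (-/-) and 7.38 on STD (-/-). *Cxcl9*, a chemokine induced by interferon-gamma, was 9.16 on HFHS (+/+), 7.93 on STD (+/+), 9.09 on HFHS (-/-) and 8.93 on STD (-/-), so its STD (+/+) array was low and the other 3 were near each other. *Gbp3*, *Xaf1* and *Stat2* differed by 0.97, 0.95 and 0.82. *Cxcl10* was 5.67 on both arrays. The letters GAAANNGAAA, of the kind that interferon regulatory factors bind, were searched on both strands and occurred in 3.44% of all promoters and in 9 of the 17 interferon genes with a sequence (52.9%). Of the 9 such genes at least 1.5-fold higher with a sequence, 5 held them. Shown are the windows at 53 bases before the start of *Gbp7* (chr3:142530274-142530302, plus strand), 45 before that of *Gbp3* (chr3:142559990-142560018, plus strand) and 222 before that of *Stat2* (chr10:128270267-128270295, plus strand), with the complement of the letters in capitals. In *Gbp3* another match overlaps the first.
Gbp7, interferon element: tgtgtgcagTTTCAGTTTCagttctccat
Gbp3, interferon element: aggacacagTTTCAGTTTCtatttcccag
Stat2, interferon element: gcaccctggTTTCAGTTTCctttccctag

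Other inflammatory genes were less uniform. Of 21 cytokine and chemokine genes, *Ccl8* was 6.56 on HFHS and 5.34 on STD, and *Ccl2*, the monocyte attractant MCP-1, was 6.08 on HFHS and 5.19 on STD. The receptor of *Ccl2*, *Ccr2*, differed by 0.80. *Tnfaip6* was 5.22 on HFHS and 6.16 on STD. *Cxcl13*, the B cell chemokine, was 6.58 on HFHS (+/+), 7.39 on STD (+/+), 9.02 on HFHS (-/-) and 7.09 on STD (-/-). It was thus high on the HFHS (-/-) array alone, as was the immunoglobulin gene *Ighg3*, and the 9 B and plasma cell genes had a median of -0.17 in *Mir342* (+/+). Acute phase genes split. *Orm1*, an orosomucoid, was 8.94 on HFHS (+/+), 6.37 on STD (+/+), 8.53 on HFHS (-/-) and 7.59 on STD (-/-), set by the STD (+/+) array alone, and *Orm3* was 6.81 on HFHS (+/+), 5.11 on STD (+/+), 7.84 on HFHS (-/-) and 5.81 on STD (-/-), where the HFHS (-/-) array alone was high. Orosomucoids resemble each other in sequence, so a probe may read both. *Lcn2*, lipocalin 2, was 7.46 on HFHS (+/+), 9.20 on STD (+/+), 7.22 on HFHS (-/-) and 7.19 on STD (-/-), where the STD (+/+) array alone was high. Of 16 complement genes, 15 lay above 0, beside 6824 of all 12963 genes. *Cfb*, factor B, was 9.03 on HFHS and 7.98 on STD. T and NK cell genes had a median of 0.02 over 6 genes and dendritic cell genes of 0.08 over 5.

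Matrix genes were higher on HFHS. Of 33 members, 29 lay above 0, 15 were at least 1.5-fold and 7 at least 2-fold higher, beside 6.53% and 1.85% of all genes, none was 1.5-fold lower, and the median was 0.52. In *Mir342* (-/-) the median was 0.15, with 5 past 1.5-fold on the higher side and 1 on the lower side. *Col14a1*, a collagen that decorates fibrils, was 7.94 on HFHS (+/+), 6.00 on STD (+/+), 7.09 on HFHS (-/-) and 6.42 on STD (-/-). *Col15a1*, of the basement membrane zone, was 7.86 on HFHS (+/+), 6.12 on STD (+/+), 7.58 on HFHS (-/-) and 6.76 on STD (-/-). *Col6a1*, a chain of the collagen VI that surrounds adipocytes, was 9.81 on HFHS (+/+), 8.63 on STD (+/+), 9.22 on HFHS (-/-) and 8.71 on STD (-/-). In these 3 genes the HFHS arrays lay above the STD arrays in both genotypes, with HFHS (+/+) the highest. *Col6a2* differed by 1.17 and *Col3a1*, a main fibrillar collagen, by 1.06, while in *Mir342* (-/-) they differed by 0.39 and 0.15. Tenascin C (*Tnc*), a matrix protein of remodelling tissue, was 6.75 on HFHS (+/+), 5.68 on STD (+/+), 6.77 on HFHS (-/-) and 5.08 on STD (-/-). *Col1a1* and *Col1a2* differed by 0.86 and 0.83, with 0.10 and 0.01 in *Mir342* (-/-). Decorin (*Dcn*) lay at -0.14 and *Thbs2* at -0.36.

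The fibroblast and preadipocyte markers share *Col14a1* and *Fbn1* with the matrix genes. Of 18 members, 7 were at least 1.5-fold and 3 at least 2-fold higher, *Col14a1* among them, beside 6.53% and 1.85% of all genes, the median was 0.39, and the summed linear level of the list was 11688 on HFHS and 9274 on STD, with 10826 on HFHS (-/-) and 10244 on STD (-/-). Whether this list had a part in the matrix difference was not tested. *Pi16*, a marker of early adventitial progenitors, was 7.68 on HFHS (+/+), 6.26 on STD (+/+), 7.32 on HFHS (-/-) and 6.44 on STD (-/-). *Thy1* was 7.25 on HFHS and 6.23 on STD, whereas *Pdgfra*, the receptor that marks preadipocytes broadly, was 8.37 on HFHS and 8.51 on STD. In the TGF-beta family list, *Ccn5*, a secreted inhibitor of adipogenic commitment, was 8.54 on HFHS (+/+), 7.12 on STD (+/+), 7.44 on HFHS (-/-) and 7.12 on STD (-/-), set by the HFHS (+/+) array alone. *Tgfb1* differed by 0.62, with 0.80 in *Mir342* (-/-), and *Fstl3*, an activin antagonist, by 0.91. Among matrix proteases *Adamts5*, an aggrecanase, was 10.06 on HFHS and 8.79 on STD. The median of 17 proteases and inhibitors was -0.10.

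Endothelial genes had a median of -0.15 over 18 genes in *Mir342* (+/+) and of 0.24 in *Mir342* (-/-). In *Mir342* (+/+), 12 of them lay below 0, beside 6126 of all 12963 genes, and none was 1.5-fold lower. *Pecam1* was 9.94 on HFHS (+/+), 10.45 on STD (+/+), 9.84 on HFHS (-/-) and 9.85 on STD (-/-), so that the STD (+/+) array was the high one. *Emcn*, *Eng* and *Vwf* differed by -0.53, -0.48 and -0.55. *Cldn5*, the tight junction protein of endothelium, was 8.54 on HFHS (+/+), 7.53 on STD (+/+), 8.10 on HFHS (-/-) and 7.07 on STD (-/-), higher on HFHS in both genotypes. Of 13 smooth muscle and pericyte genes, the smooth muscle myosin *Myh11* was 8.46 on HFHS and 9.49 on STD, and *Tagln* was 8.47 on HFHS and 9.09 on STD. The median was -0.22. Mesothelial genes had a median of 0.15, with mesothelin (*Msln*) 6.98 on HFHS and 5.97 on STD.

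Several genes were lower on HFHS in both genotypes. Genes past 2-fold in the same direction in both were picked for naming, so this arrangement follows in part from that choice. *Rgs2*, a regulator of G protein signalling, was 6.44 on HFHS (+/+), 9.06 on STD (+/+), 7.09 on HFHS (-/-) and 8.41 on STD (-/-), a 6.14-fold difference in *Mir342* (+/+). *Adgrg2*, an adhesion receptor first described in the epididymis, was 8.39 on HFHS (+/+), 10.34 on STD (+/+), 8.54 on HFHS (-/-) and 9.52 on STD (-/-). *Slc43a1*, a transporter of large neutral amino acids, was 6.69 on HFHS (+/+), 8.66 on STD (+/+), 7.38 on HFHS (-/-) and 8.54 on STD (-/-). Neither diet's arrays overlapped those of the other in these 3 genes, and the share of all genes with this separation was not counted. *Trp53inp1*, a stress-induced p53 partner, differed by -1.91, *Chchd10*, a mitochondrial protein, by -1.76, and *Cyp1b1*, a cytochrome P450, by -1.46. In *Mir342* (-/-) these differed by -1.41, -1.56 and -1.48. *Zim1*, an imprinted zinc finger gene, was 6.96 on HFHS (+/+), 8.65 on STD (+/+), 6.01 on HFHS (-/-) and 7.87 on STD (-/-), and its imprinted neighbour *Peg3* differed by -0.79 and, in *Mir342* (-/-), by -0.68. *Irf4*, a transcription factor known to be induced in fat by fasting, had the largest named decrease, with 5.84 on HFHS (+/+), 9.65 on STD (+/+), 6.73 on HFHS (-/-) and 8.01 on STD (-/-). Both HFHS arrays were below both STD arrays, and the 14.1-fold difference in *Mir342* (+/+) was set by the high STD (+/+) array.

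**Figure D4:**
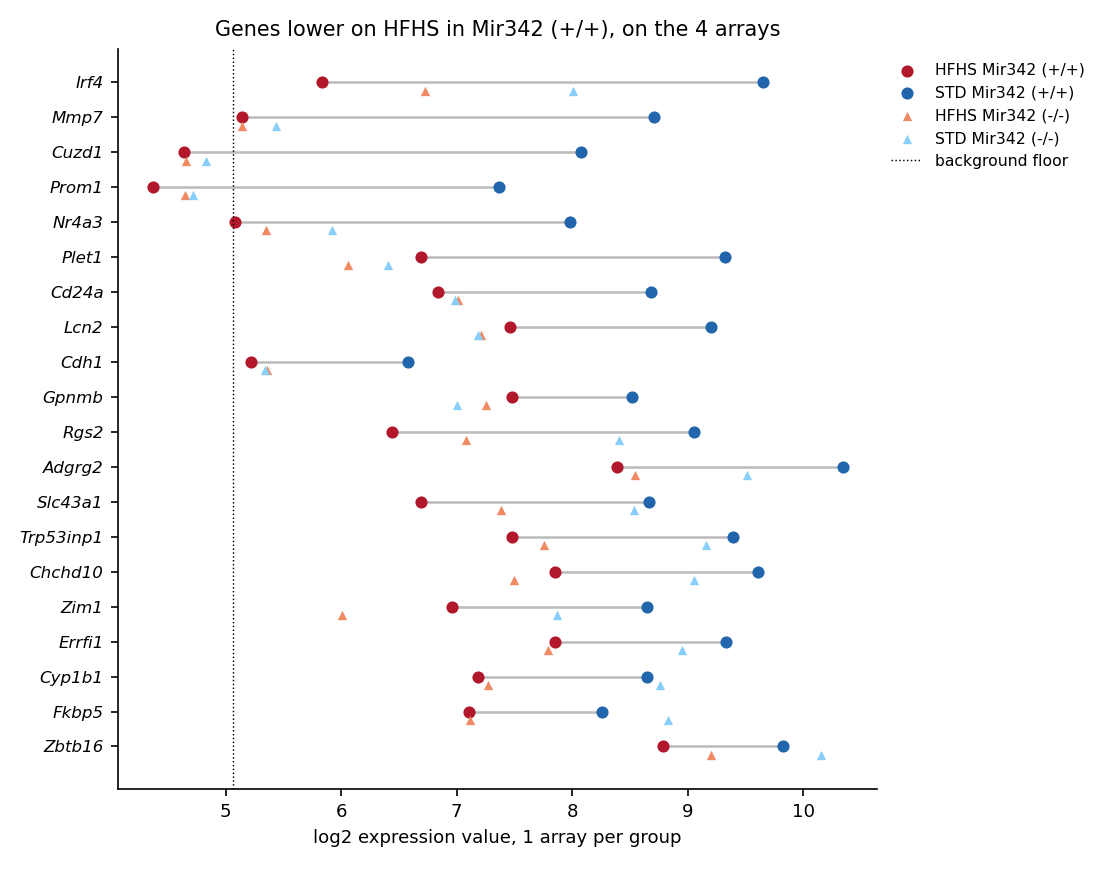
Log2 expression value (x axis) of genes lower on HFHS in *Mir342* (+/+) (y axis) on the 4 arrays, with circles for *Mir342* (+/+), triangles for *Mir342* (-/-), and the background floor dotted. From *Mmp7* to *Gpnmb* the STD (+/+) circle stands alone on the right, whereas from *Rgs2* down the STD (-/-) triangle also lies to the right of both HFHS symbols.

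Targets of the glucocorticoid receptor and genes of the fasted state were mostly lower. Of 23 members, 18 lay below 0, 10 were at least 1.5-fold and 5 at least 2-fold lower, beside 4.67% and 1.19% of all genes, 1 was at least 1.5-fold higher, and the median was -0.31, the same as in *Mir342* (-/-). *Fkbp5*, a cochaperone of the receptor, was 7.11 on HFHS (+/+), 8.26 on STD (+/+), 7.12 on HFHS (-/-) and 8.83 on STD (-/-). *Zbtb16* (PLZF) was 8.79 on HFHS (+/+), 9.83 on STD (+/+), 9.20 on HFHS (-/-) and 10.15 on STD (-/-). *Errfi1*, an inhibitor of the EGF receptor, was 7.85 on HFHS (+/+), 9.33 on STD (+/+), 7.79 on HFHS (-/-) and 8.96 on STD (-/-). In these 3 genes both HFHS arrays were below both STD arrays. *Cdkn1a* (p21) differed by -1.47 and *Ddit4*, an inhibitor of mTORC1, by -0.99, with -0.48 and -1.01 in *Mir342* (-/-). The remaining gene past 2-fold was *Lcn2*, described above, which was not lower in *Mir342* (-/-). *Tsc22d3* (GILZ) differed by -0.24, *Per1* by -0.54, *Pdk4* by -0.04 and the receptor gene *Nr3c1* by 0.16.

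Circadian genes lay below 0 in 14 of 17 cases, beside 6126 of all 12963 genes, with a median of -0.20 in both genotypes. *Npas2* was 5.60 on HFHS (+/+), 6.69 on STD (+/+), 5.49 on HFHS (-/-) and 5.84 on STD (-/-), and *Arntl* (BMAL1) was 6.53 on HFHS (+/+), 7.49 on STD (+/+), 6.36 on HFHS (-/-) and 6.45 on STD (-/-). *Dbp*, which peaks opposite to *Arntl* over the day, was 8.01 on HFHS (+/+), 7.04 on STD (+/+), 8.09 on HFHS (-/-) and 8.02 on STD (-/-). In these 3 genes the STD (+/+) array lay apart from the other 3 arrays. The sources used here give no time of day for the tissue collection. Immediate early genes had a median near 0. *Nr4a3* was 5.08 on HFHS (+/+), 7.98 on STD (+/+), 5.35 on HFHS (-/-) and 5.93 on STD (-/-), high on the STD (+/+) array alone, and *Fos* was 7.37 on HFHS (+/+), 5.73 on STD (+/+), 5.75 on HFHS (-/-) and 5.90 on STD (-/-), high on the HFHS (+/+) array alone.

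Of the 154 genes lower on HFHS, 50 (32.5%) were set by the STD (+/+) array alone, and 5 of these were on the duct and secretory epithelium list. Of 11 duct and secretory epithelium markers compared, those 5 were at least 2-fold lower on HFHS, beside 1.19% of all genes. *Cuzd1* and *Prom1* passed the floor only through the STD (+/+) array, where they were high, so this count is partly fixed by the filter. *Mmp7*, matrilysin of glandular epithelia, was 5.14 on HFHS (+/+), 8.71 on STD (+/+), 5.14 on HFHS (-/-) and 5.44 on STD (-/-). *Plet1* was 6.69 on HFHS (+/+), 9.32 on STD (+/+), 6.06 on HFHS (-/-) and 6.40 on STD (-/-). *Cdh1*, E-cadherin, was 5.22 on HFHS (+/+), 6.58 on STD (+/+), 5.36 on HFHS (-/-) and 5.34 on STD (-/-). Each had 3 arrays close together and 1 apart. *Cuzd1* and *Prom1* (prominin 1) were below the floor on the other 3 arrays and at 8.08 and 7.36 on STD (+/+), so that HFHS was at least 8.09-fold and 4.93-fold lower.

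The summed linear level of the 19 duct and secretory markers on the array was 755 on HFHS (+/+), 2259 on STD (+/+), 727 on HFHS (-/-) and 756 on STD (-/-). The epithelial genes *Epcam*, *Cldn7*, *Elf3* and *Ehf* had means under the floor and were not among those compared, but the STD (+/+) array was the highest in each. Not all markers of the list under the floor were like this. *Cldn4* was 5.15 on STD (+/+) and 5.22 on STD (-/-), *Wfdc2* 4.85 and 5.06, and *Ltf* 4.30 and 4.76, with STD (-/-) the highest array in each. *Epcam* was 3.48 on HFHS (+/+), 5.37 on STD (+/+), 3.76 on HFHS (-/-) and 3.73 on STD (-/-), and *Pax8*, likewise under the floor in its mean, was 4.62 on HFHS (+/+), 5.93 on STD (+/+), 4.39 on HFHS (-/-) and 4.42 on STD (-/-). *Elf3* was 4.09 on HFHS (+/+) and 5.13 on STD (+/+), and *Ehf* 3.71 on HFHS (+/+) and 4.99 on STD (+/+). Of the keratins, *Krt8* was 6.70 on HFHS and 6.88 on STD, and *Krt7* was 5.79 on HFHS and 5.48 on STD. The summed level of the epididymal list was 389 on HFHS (+/+), 446 on STD (+/+), 442 on HFHS (-/-) and 479 on STD (-/-). The part of epithelial cells in the decreases was not tested. *Cd24a*, a surface protein of many epithelia and one of the 50, was 6.84 on HFHS (+/+), 8.68 on STD (+/+), 7.01 on HFHS (-/-) and 6.98 on STD (-/-). Further genes of the 50 were *Cdhr3*, a cadherin of ciliated airway cells, at least 4.33-fold lower on HFHS, *Dcdc2a*, a protein of cilia, at least 3.21-fold lower, and *Egfl6*, *Pipox* and *Ppil6*, each at least 5.15-fold lower. These were under the floor on HFHS (+/+), and their high STD (+/+) value raised the mean that was set against the floor. Their place among the 50 is thus partly fixed by the filter. *Slc38a2*, the amino acid transporter SNAT2 and also one of the 50, was 8.49 on HFHS (+/+), 9.90 on STD (+/+), 8.45 on HFHS (-/-) and 8.81 on STD (-/-).

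On the side of the HFHS (+/+) array, 15 genes stood alone and high. The largest was *1700047G03Rik*, a transcript with no given function that is named here after its value was seen, followed by *Slc5a7*, the choline transporter of cholinergic neurons, with 8.03 on HFHS (+/+), 4.17 on STD (+/+), 6.19 on HFHS (-/-) and 4.78 on STD (-/-), and *Lipf*, a gastric lipase gene, with 7.53 on HFHS (+/+), 3.86 on STD (+/+), 5.31 on HFHS (-/-) and 3.94 on STD (-/-). Both STD arrays lay under the floor, which makes the *Mir342* (+/+) differences at least 7.84-fold and 5.53-fold. The high HFHS (+/+) value of *Slc5a7* and *Lipf* raised the mean that was set against the floor. Their place among the 15 is thus partly fixed by the filter. Matrix genes were among the rest, with *Cilp* at 8.31 on HFHS and 5.97 on STD and *Mfap4* at 7.35 on HFHS and 5.36 on STD. *Oxtr*, the oxytocin receptor, was 7.34 on HFHS (+/+), 5.42 on STD (+/+), 6.09 on HFHS (-/-) and 5.60 on STD (-/-). Of these 15 genes, 14 were also higher in *Mir342* (-/-), with a median of 0.50. *Mrc2*, the collagen receptor Endo180, was 7.18 on HFHS (+/+) and 5.46 on STD (+/+) but 5.92 on both *Mir342* (-/-) arrays. *Snap25*, a vesicle fusion protein of neurons, was 5.27 on HFHS (+/+) and 5.11 on STD (+/+), and 6.85 on HFHS (-/-) and 4.91 on STD (-/-), set by the HFHS (-/-) array alone.

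**Figure D5:**
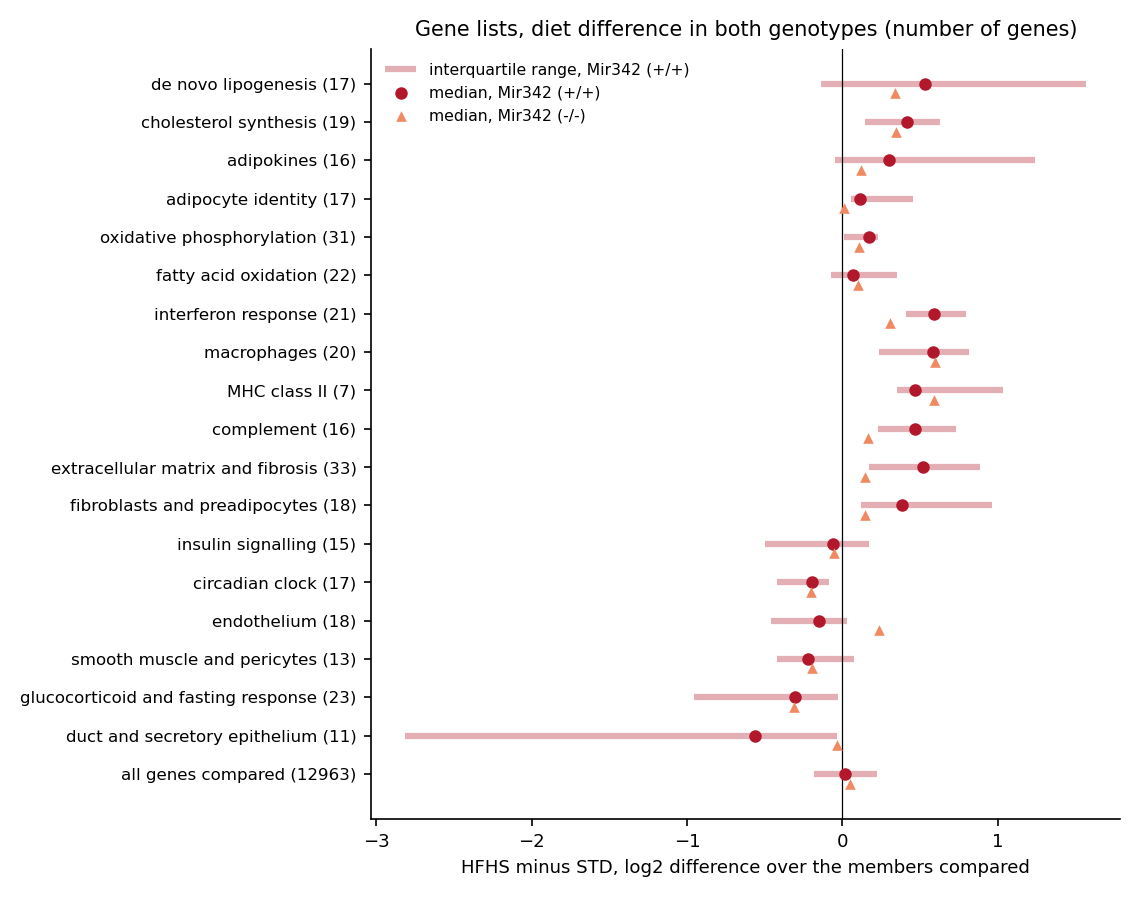
Median HFHS minus STD log2 difference (x axis) of gene lists (y axis, with the number of genes), circles for *Mir342* (+/+) with bars for the interquartile range, and triangles for *Mir342* (-/-). Macrophage, interferon, matrix and lipogenesis lists lie to the right of the median over all genes, and the glucocorticoid and duct epithelium lists to the left.

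The remaining lists are given by their medians. The 21 heat shock and endoplasmic reticulum stress genes had a median of -0.11 and none of them reached 1.5-fold. Of 19 hypoxia and angiogenesis genes the median was -0.03, with *Bnip3* at -0.89 and *Vegfb* at 0.88. Skeletal muscle genes had a median of 0.02, with *Acta1* at 0.93. Cell cycle genes had a median of 0.49 over 13 genes, but of -0.21 with the floor raised by 1. Of the 13, 11 lay above 0, beside 6824 of all 12963 genes, and 4 were at least 1.5-fold higher, beside 6.53%. They were led by *Mki67* (Ki-67) with 6.59 on HFHS (+/+), 5.61 on STD (+/+), 6.33 on HFHS (-/-) and 5.68 on STD (-/-), and none of them passed 2-fold. Of 12 thermogenic fat markers on the array, 6 were compared, with a median of 0.30, but of -0.34 with the floor raised by 1. *Cox8b* was 6.09 on HFHS and under the floor on STD, that is, at least 2.04-fold higher, whereas *Ppargc1a* was 5.81 on HFHS and 6.63 on STD. *Ucp1* and *Dio2* had means under the floor and differed by -0.04 and -0.08. Of 12 mast cell genes on the array, 7 were compared, with a median of 0.43. Of the 7, 5 lay above 0 and 2 below, beside 6824 of all 12963 genes above 0. Among them *Cpa3*, carboxypeptidase A, differed by 0.90, with 0.51 in *Mir342* (-/-).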

How the data were processed

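Total RNA of epididymal fat was labelled and hybridized to 4 arrays of the type GeneChip Mouse Gene 2.0 ST, 1 per combination of genotype, *Mir342* (+/+) or *Mir342* (-/-), and chow, HFHS or STD. The methods name 3 individual animals from each group. The authors deposited 1 log2 expression value per probe and array. The sources used here do not state how these values were summarized and normalized. No further normalization was applied. Arrays have no read depth, so their number, 1 per group, limits the precision. Groups came from the genotype and diet of the sample labels.

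Of 41345 probes, 23521 carried 1 gene symbol, 1820 several and 16004 none in the platform annotation, and the first were used. Of the 22180 genes, 1082 had several probes. The floor was the 95th percentile of the 4-array means of 1443 olfactory, vomeronasal and taste receptor probes. A value under the floor was set to it for a bound on a fold.

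The genes, the 49 lists and the rule for naming genes were chosen with earlier results of these data known. Named were the 25 largest increases and decreases, leaving out unnamed genes, receptor families, antigen receptor segments, small RNAs and pseudogenes, the 15 largest of each direction past 2-fold in both genotypes or set by 1 array, up to 8 members of each list and others whose role is described, *Mir342* and *Evl*, and the text names a part of these. Lists are described by counts and medians beside those of all genes compared. Promoter and microRNA sequences were read from RefSeq tables of build GRCm38.p6. The steps were run in Python 3.11.15 with pandas 2.3.3 and numpy 2.4.6, and were tested on simulated data. The alternatives were quantile normalization, centring on the median, other floors, the mean of a gene's probes, a 1.5-fold threshold and, chosen after seeing the data, leaving out genes set by 1 array.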

Additional observations from a re-analysis of the deposited data

How the results depend on the processing

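With 1 array per group the differences have no error, and the summarization of the arrays is unknown. No paired analysis was possible because the HFHS and STD groups of *Mir342* (+/+) held 1 array each and the labels carry no replicate numbers. The counts depended on the floor and the threshold. Genes lower on HFHS numbered 257 without a floor and 94 with the floor raised by 1, against 154, and the share of calls that were higher was 50.3% without a floor and 67.0% with it raised, against 60.9%. The STD (+/+) array alone set 117 genes on the high side without a floor and 18 with it raised, against 50. At 1.5-fold, 846 genes were higher, 606 were lower, and the STD (+/+) array alone set 216 on the high side and 99 on the low side. Quantile normalization, centring, setting low values to the floor and the mean of a gene's probes gave 226 to 263 higher and 142 to 148 lower genes. Leaving out genes set by 1 *Mir342* (+/+) array gave 210 and 103. Centring moved the median of all genes to 0.05. With the floor raised by 1, the median of the cell cycle list turned from 0.49 to -0.21 and that of thermogenic fat from 0.30 to -0.34, while 9 other lists whose medians changed sign were near 0 or held few genes. Of 127 named genes past 2-fold, 4 fell below it in some setting, *Apln* and *Mcpt4* with low values set to the floor, *G0s2* with the mean of its probes, and *Myh11* with centring. The causes were not tested.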

Other observations

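Small nucleolar RNAs, which guide the chemical modification of ribosomal RNA, were lower on HFHS in *Mir342* (+/+) as a family. The family was noted after its values were seen. All 63 Snora and Snord genes compared lay below 0, beside 6126 of all 12963 genes, and the median was -0.71. At least 2-fold lower were 14 of the 63, beside 1.19% of all genes. Of 24 H/ACA box members, 11 were at least 2-fold lower, with a median of -0.98, and of 39 C/D box members 3 were, with a median of -0.66. In *Mir342* (-/-) the median of the 63 was -0.24 and none was 2-fold lower. The median level of the family was 7.61 on HFHS (+/+), 8.45 on STD (+/+), 7.76 on HFHS (-/-) and 8.04 on STD (-/-), so the STD (+/+) array was the highest and HFHS (+/+) the lowest. *Snora75* was 7.22 on HFHS (+/+), 9.42 on STD (+/+), 7.66 on HFHS (-/-) and 7.94 on STD (-/-). *Snora73b* was 6.60 on HFHS (+/+), 8.21 on STD (+/+), 7.04 on HFHS (-/-) and 7.41 on STD (-/-).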
